A study of Mus musculus with 80 samples.

Results

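The genes described here are those that build fatty acids, turn them into triglyceride, store it in lipid droplets and break it down again. A list of 38 gene symbols was matched to the rows of a deposited liver count table, and 37 of the 38 were found among its 22103 rows (Cidea, a droplet protein, was not analysed here). All 37 passed the filter on low counts that left 15197 genes to be tested. Liver RNA came from 20 female Balb-C mice aged 10 to 12 weeks, gavaged daily for 7 days with PFESA-BP2, a perfluoroalkyl ether sulfonic acid also called Nafion byproduct 2. A control group (0 mg/kg-day) and groups at 0.03, at 0.3, at 3.0 and at 6.0 mg/kg-day held 4 mice each, with 1 library per mouse. The labels give no genetic change in any group. The vehicle of the control mice is unsettled, because sample titles name DMSO and the design text names deionized water. The liver label was checked against 10 hepatocyte markers, all of which were tested. The most abundant, Alb (albumin), averaged 73798 CPM at 6.0 mg/kg-day and 126657 CPM in the control mice.

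In the liver, acetyl-CoA made in the cytosol is carboxylated to malonyl-CoA and joined by fatty acid synthase into palmitate, which elongases and desaturases then modify. Acyl chains are placed on a glycerol backbone in steps that end in triglyceride, and the triglyceride leaves the cell in lipoproteins or is kept in droplets coated by perilipins. Lipases release fatty acids from these droplets again, and the transcription factors encoded by Srebf1, Mlxipl and Pparg are known to switch on many of the genes of synthesis and storage.

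Libraries held between 13086779 and 21467012 counts, and levels are given in CPM (counts scaled to a total of 1e+06 per library, with TMM factors). Within each group 1 library stood apart, namely library 3 in the control group and libraries 11, 15, 19 and 23 in the dose groups from low to high. Their scores on the first component of the variation within groups, which held 42.7% of that variation, started at 0.27, while the 15 remaining libraries scored at most -0.02. These libraries were picked from the same values that are tested. P-values of fits with a term for them, or without them, can therefore be too small. In every list of 4 values given per group here, the library that stood apart is at position 3. The words rose and fell are kept for an adjusted p under 0.05 in edgeR's quasi-likelihood test, with Benjamini-Hochberg adjustment over all genes tested. Changes are log2 fold changes of a dose over control with their SE. The 4 dose comparisons share the same 4 control mice. In whole liver, fewer cells of a type and less RNA per cell cannot be told apart.

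At 6.0 mg/kg-day 13 of the 37 genes rose and 3 fell. Those that rose were Acss2, Me1, Scd1, Scd2, Elovl1, Elovl6, Thrsp, Pparg, Mogat1, Cidec, Fitm1, Pnpla3 and G0s2, and those that fell were Srebf1, Lpin1 and Dgat2. These are 35.1% higher and 8.11% lower, where among all genes tested 11.2% were higher and 11.2% lower. At 3.0 mg/kg-day 6 genes rose (Acss2, Elovl1, Elovl6, Mogat1, Fitm1 and Pnpla3), or 16.2%, where 3.18% of all genes tested rose. No member fell at that dose, and 1.43% of all genes did. With DESeq2, 1 member (Lpin1) and 2.11% of all genes were lower at that dose. The median change of the 37 genes was 0.04, 0.11, 0.18 and 0.39 from the lowest to the highest dose, against a median between -0.02 and -0.01 over all genes tested. Without the 5 libraries that stood apart the median of the 37 genes was 0.07, 0.07, 0.15 and 0.28.

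At 0.3 and 0.03 mg/kg-day 0 members passed. Among all genes tested 0.138% were higher and 0.151% lower at 0.3 mg/kg-day, and at 0.03 mg/kg-day 0% were called in either direction. An unadjusted p under 0.05 was reached by 7 members at 0.3 and by 1 member at 0.03 mg/kg-day, and the smallest adjusted p of a member at 0.3 mg/kg-day was 0.0996 (Acly). DESeq2 called 2 members (Acly and Acss2) and 0.652% of all genes higher at 0.3 mg/kg-day, and no tool or setting run called any at 0.03 mg/kg-day. In the joint test for a difference at any dose, 15 members passed, and 21.4% of all genes did. The 15 are the genes called at 6.0 mg/kg-day other than Scd2.

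**Figure D1:**
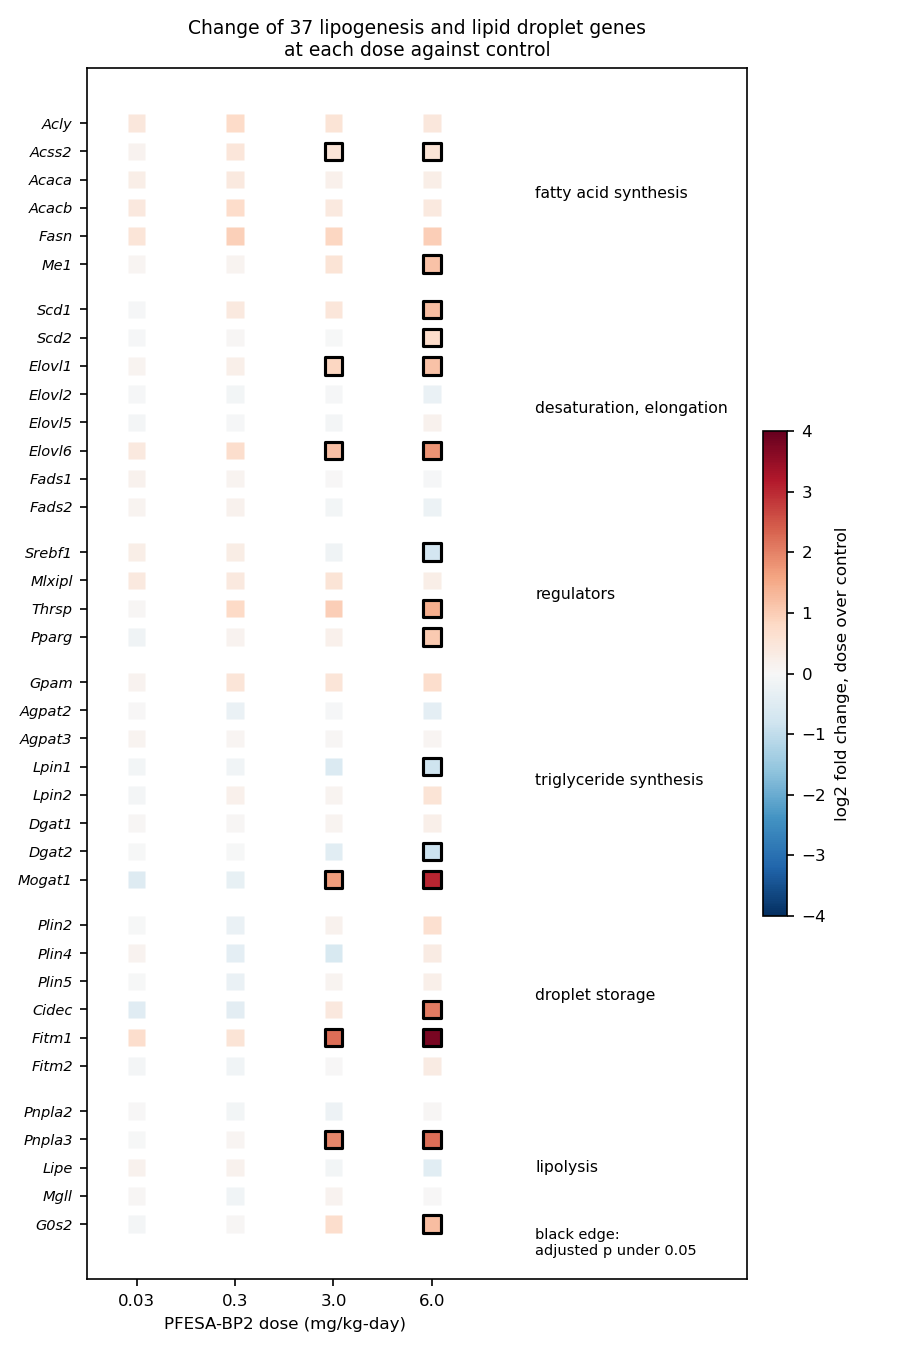
Log2 fold change over control of each of the 37 genes (rows, grouped by role) at the 4 doses of PFESA-BP2 (columns, mg/kg-day), with a black edge where the adjusted p was under 0.05. Black edges are on 6 genes at 3.0 and on 16 genes at 6.0 mg/kg-day, and the deepest red is that of Fitm1 at 6.0 mg/kg-day (3.81).

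Fitm1, Mogat1, Pnpla3 and Elovl6 had the largest changes at 6.0 mg/kg-day among the 6 genes that rose at both upper doses, and their promoters are shown for that reason. Each window runs from 250 bases before to 50 bases after a RefSeq transcription start on GRCm38.p6, 5′ to 3′ on the plus strand. The windows are chr14:55575424-55575723 (Fitm1), chr1:78510810-78511109 (Mogat1), chr15:84167566-84167865 (Pnpla3) and chr3:129532136-129532435 (Elovl6). Capitals mark a match, on either strand, to CCAAT (the CCAAT box, bound by NF-Y) or to AGGTCA (the core site of nuclear receptors).
Fitm1: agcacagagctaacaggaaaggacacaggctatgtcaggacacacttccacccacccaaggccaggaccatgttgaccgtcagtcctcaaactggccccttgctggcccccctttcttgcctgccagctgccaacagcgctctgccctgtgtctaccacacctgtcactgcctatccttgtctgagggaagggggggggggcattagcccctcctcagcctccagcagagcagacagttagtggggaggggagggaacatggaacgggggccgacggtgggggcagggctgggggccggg
Mogat1: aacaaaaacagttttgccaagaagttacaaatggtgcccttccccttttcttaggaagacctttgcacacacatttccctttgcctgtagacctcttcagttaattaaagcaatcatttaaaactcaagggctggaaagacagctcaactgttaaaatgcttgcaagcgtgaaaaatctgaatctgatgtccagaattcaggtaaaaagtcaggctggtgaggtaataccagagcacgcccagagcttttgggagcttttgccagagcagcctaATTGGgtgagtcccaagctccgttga
Pnpla3: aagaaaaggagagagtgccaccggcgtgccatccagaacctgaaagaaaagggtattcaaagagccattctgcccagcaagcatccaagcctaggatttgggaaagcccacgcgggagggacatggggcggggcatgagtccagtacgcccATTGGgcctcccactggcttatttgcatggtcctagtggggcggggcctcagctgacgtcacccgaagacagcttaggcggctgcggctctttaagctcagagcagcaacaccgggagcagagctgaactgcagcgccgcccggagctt
Elovl6: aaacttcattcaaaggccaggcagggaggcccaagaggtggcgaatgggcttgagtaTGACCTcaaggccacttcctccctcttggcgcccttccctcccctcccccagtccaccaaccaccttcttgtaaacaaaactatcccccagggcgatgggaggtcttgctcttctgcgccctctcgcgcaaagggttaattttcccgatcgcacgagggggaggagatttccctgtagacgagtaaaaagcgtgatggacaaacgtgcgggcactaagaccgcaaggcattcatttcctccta
The windows of Mogat1 and Pnpla3 hold the CCAAT box as its reverse complement, starting at base 25 and at base -99 counted from the start site, and that of Elovl6 holds the core site as its reverse complement at base -193. The Fitm1 window has neither run of letters. RefSeq windows were matched for 32 of the members (47 windows). CCAAT was in 42.6% of these and in 37.41% of all 32851 windows of the same length, and AGGTCA was in 23.4% and 16.26%. The run CACGTG, an E-box that carbohydrate response elements contain, was in 12.8% of member windows and 7.15% of all windows. The sterol regulatory element TCACNCCAC was in 1 member window, that of Mlxipl, and in 1.24% of all windows. A direct repeat of AGGTCA with 1 base between (DR1, the kind PPAR binds) was in 0 member windows and in 0.04% of all windows. These matches are descriptions of letters and were not tested as binding sites.

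Of the 6 genes that supply and run fatty acid synthase, Acss2 and Me1 rose at 6.0 mg/kg-day. Acss2, which makes acetyl-CoA from acetate, had 91.8, 88.6, 85.0 and 97.3 CPM in the control mice. It had 115, 109, 87.2 and 85.9 CPM at 0.03, then 137, 127, 133 and 110.3 CPM at 0.3 mg/kg-day. Acss2 had 124, 155, 120.3 and 119 CPM at 3.0 and 123, 128, 156 and 122 CPM at 6.0 mg/kg-day. Every mouse at the 3 upper doses was above every control mouse, and the 3 upper group means lay between 127 and 132 CPM. The change was 0.52 ± 0.12 at 3.0 (adjusted p = 0.0156) and 0.54 ± 0.12 at 6.0 mg/kg-day (adjusted p = 0.0033). At 3.0 mg/kg-day the call was lost without control library 3 or without library 18, with an adjusted p of up to 0.078.

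Me1, the malic enzyme that makes NADPH in the cytosol, passed at 6.0 mg/kg-day only. It had 145, 129, 82.9 and 127 CPM in the control mice, 119, 143, 106 and 142 CPM at 0.03 and 151, 138, 107 and 129.6 CPM at 0.3 mg/kg-day. Me1 had 147, 214, 165 and 182 CPM at 3.0 and 217, 276, 316 and 288 CPM at 6.0 mg/kg-day. Both upper groups lay wholly above the control group, and the 6.0 group lay wholly above the 3.0 group. Me1 rose 2.27-fold at 6.0 mg/kg-day (log2 1.18 ± 0.17, adjusted p = 3.7e-05), and its change at 3.0 mg/kg-day was 0.55 (adjusted p = 0.0739).

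Fasn, fatty acid synthase itself, did not pass at any dose. It had 166, 151, 216 and 187 CPM in the control mice, 249, 251, 316 and 215 CPM at 0.03 and 315, 395, 424 and 271 CPM at 0.3 mg/kg-day. Fasn had 197, 298, 466 and 334 CPM at 3.0 and 208, 170.3, 800 and 236 CPM at 6.0 mg/kg-day. The library that stood apart had the highest Fasn level of its group at every dose, and at 6.0 mg/kg-day it held 800 CPM where the next mouse held 236 CPM. Mean Fasn was 354 ± 299 CPM at 6.0 mg/kg-day and 180.3 ± 28.2 CPM in the control mice (SD, n = 4 each), a change of 0.97 ± 0.36 (adjusted p = 0.0591). Without the 5 libraries that stood apart the change was 0.31 (adjusted p = 0.192). At 0.3 mg/kg-day every mouse was above every control mouse, with a change of 0.96 ± 0.36 and an adjusted p of 0.398.

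At 0.3 mg/kg-day the levels of most of these enzymes lay above those of the control group, without any member passing the test. In 5 of the 6 genes (Acly, Acss2, Acaca, Acacb and Fasn) all 4 mice at 0.3 mg/kg-day were above all 4 control mice. Over all members this held for 8 of 37, or 21.6%, the other 3 being Elovl6, Srebf1 and Fitm1, where 3.71% of all genes tested lay wholly above the control group. No member lay wholly below it (2.97% of all genes). Fitm1 cleared the control group narrowly and at a low level, with a lowest value of 0.818 CPM where the highest control mouse had 0.790 CPM. The members were measured in the same mice, so they do not count as separate evidence. Acly, which cleaves citrate to acetyl-CoA, spanned 251 to 299.7 CPM at 0.3 mg/kg-day and 117 to 191 CPM in the control mice. Acaca and Acacb, the 2 acetyl-CoA carboxylases, spanned 63.2 to 70.1 CPM and 42.9 to 57.6 CPM at 0.3 mg/kg-day, against 44.7 to 60.7 CPM and 27.7 to 37.1 CPM in the control mice. At 6.0 mg/kg-day all 3 overlapped the control group, with changes of 0.47 (Acly), 0.28 (Acaca) and 0.39 (Acacb). Library 23 held the highest level of each at that dose, 326, 95.4 and 69.6 CPM, and without the 5 libraries that stood apart the changes were 0.11, 0.01 and -0.02. With a term for the libraries that stood apart, 4 members passed at 0.3 mg/kg-day, namely Acly (0.77), Acss2 (0.48), Fasn (0.96) and Elovl6 (0.69). That is 10.8% of the members, where 0.928% of all genes were higher in this fit. Without those 5 libraries 3 of them passed (Acly, Fasn and Elovl6), or 8.11%, where 0.443% of all genes were higher.

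Of the 8 desaturases and elongases, Scd1, Scd2, Elovl1 and Elovl6 rose at 6.0 mg/kg-day, and none fell. Elovl6, which lengthens palmitate to stearate, had 55.4, 55.0, 66.4 and 68.2 CPM in the control mice, 66.6, 71.3, 93.3 and 88.1 CPM at 0.03 and 97.1, 97.6, 108 and 93.0 CPM at 0.3 mg/kg-day. Elovl6 had 97.9, 136, 177 and 159 CPM at 3.0 and 150.4, 152, 351 and 196 CPM at 6.0 mg/kg-day. Its group means increased with each dose, and the 3 upper groups lay wholly above the control group. Elovl6 rose 2.33-fold at 3.0 (log2 1.22 ± 0.23, adjusted p = 0.00193) and 3.46-fold at 6.0 mg/kg-day (log2 1.79 ± 0.23, adjusted p = 9e-06).

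Elovl1, which lengthens saturated very long chains, had 33.1, 36.2, 25.4 and 35.7 CPM in the control mice, 36.2, 36.9, 31.3 and 36.5 CPM at 0.03 and 37.9, 36.1, 41.7 and 38.7 CPM at 0.3 mg/kg-day. Elovl1 had 58.2, 58.3, 59.8 and 62.2 CPM at 3.0 and 66.3, 57.6, 78.3 and 90.6 CPM at 6.0 mg/kg-day. All 8 mice at the upper doses were above all mice of the other groups. The changes were 0.87 ± 0.13 at 3.0 (adjusted p = 0.000265) and 1.17 ± 0.13 at 6.0 mg/kg-day (adjusted p = 2.22e-06).

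Scd1, the stearoyl-CoA desaturase of hepatocytes, was the most abundant member per length. It had 1829.7, 1583, 2907 and 1666 CPM in the control mice, 1442, 1836, 2184 and 2279 CPM at 0.03 and 2142, 3258, 2946 and 2207 CPM at 0.3 mg/kg-day. Scd1 had 2426, 3157, 3269 and 2399 CPM at 3.0 and 3155, 4257, 6610.4 and 4571 CPM at 6.0 mg/kg-day. Only the 6.0 group lay wholly above the control group, whose highest value was in library 3. Scd1 rose 2.33-fold at 6.0 mg/kg-day (log2 1.22 ± 0.23, adjusted p = 0.000739).

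Scd2, another stearoyl-CoA desaturase, was far less abundant. It had 4.99, 5.40, 8.50 and 5.94 CPM in the control mice, 6.36, 5.27, 6.78 and 5.67 CPM at 0.03 and 6.71, 6.25, 6.35 and 6.00 CPM at 0.3 mg/kg-day. Scd2 had 4.80, 5.21, 8.43 and 5.93 CPM at 3.0 and 7.15, 16.9, 10.6 and 6.22 CPM at 6.0 mg/kg-day. The 6.0 and control groups overlapped, and the highest value belonged to library 22. Scd2 rose by 0.73 ± 0.25 (adjusted p = 0.0427), and that call was lost under 7 of 15 alternatives, among them leaving out library 22 or 23 or control library 1, 2 or 4 (changes between 0.37 and 0.92, adjusted p up to 0.279). Library 22 also held the highest summed level of 8 T and NK cell markers, 122 CPM, where the next library held 9.97 CPM. Their part in the Scd2 result was not tested.

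The 4 genes for polyunsaturated chains did not pass at any dose. Fads1 and Fads2, the delta-5 and delta-6 desaturases, changed by -0.06 and -0.23 at 6.0 mg/kg-day, and the elongases Elovl2 and Elovl5 by -0.26 and 0.17. Elovl2 spanned 348 to 533 CPM at 6.0 mg/kg-day and 521 to 579 CPM in the control mice. Without the 5 libraries that stood apart, Elovl2 (-0.34, adjusted p = 0.0431) and Fads2 (-0.44, adjusted p = 0.0184) fell at 6.0 mg/kg-day.

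Among the 4 regulators, Thrsp and Pparg rose at 6.0 mg/kg-day and Srebf1 fell. Srebf1, which encodes the transcription factor SREBP-1, had 242, 232, 267 and 284 CPM in the control mice, 314, 249, 339 and 338 CPM at 0.03 and 338, 303, 316 and 296 CPM at 0.3 mg/kg-day. Srebf1 had 241, 221, 243 and 203 CPM at 3.0 and 134, 86.9, 249.8 and 152 CPM at 6.0 mg/kg-day. All mice at 0.3 mg/kg-day were above the control group, while 3 of 4 mice at 6.0 mg/kg-day were below it and library 23 was within it. The change was 0.29 ± 0.20 at 0.3 (adjusted p = 0.779) and -0.72 ± 0.20 at 6.0 mg/kg-day (adjusted p = 0.0147). The call at 6.0 mg/kg-day was lost when only the control and 6.0 groups were fitted (adjusted p = 0.101) and without library 21 (adjusted p = 0.0515).

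Thrsp, a nuclear protein that responds to thyroid hormone and carbohydrate and promotes lipogenesis, had 106, 119.7, 116 and 250 CPM in the control mice, 239, 141, 128 and 103 CPM at 0.03 and 330.1, 217, 217 and 258 CPM at 0.3 mg/kg-day. Thrsp had 358, 328, 250.2 and 229 CPM at 3.0 and 301, 299, 427 and 584 CPM at 6.0 mg/kg-day. The 6.0 group lay wholly above the control group, in which library 4 held 250 CPM and the other 3 at most 119.7 CPM. Thrsp rose 2.72-fold (log2 1.44 ± 0.30, adjusted p = 0.00134), and at 3.0 mg/kg-day its change was 0.98 (adjusted p = 0.0658).

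Pparg, the nuclear receptor that drives fat storage in adipocytes and steatotic liver, had 10.4, 10.2, 10.1 and 8.68 CPM in the control mice, 9.05, 8.95, 6.83 and 9.91 CPM at 0.03 and 9.48, 12.9, 11.5 and 9.74 CPM at 0.3 mg/kg-day. Pparg had 11.8, 11.0, 11.6 and 11.5 CPM at 3.0 and 17.9, 19.2, 21.1 and 22.8 CPM at 6.0 mg/kg-day. Every mouse at 6.0 mg/kg-day was above every mouse of the other 4 groups. Pparg rose 2.05-fold (log2 1.04 ± 0.13, adjusted p = 6.68e-06). Mlxipl, which encodes the carbohydrate-responsive factor ChREBP, changed by 0.26 (adjusted p = 0.377) and spanned 132 to 230 CPM at 6.0 mg/kg-day and 102 to 188 CPM in the control mice.

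Of the 8 genes of glycerolipid and triglyceride synthesis, Mogat1 rose while Lpin1 and Dgat2 fell at 6.0 mg/kg-day. Mogat1, the acyltransferase that makes diacylglycerol from monoacylglycerol, had 0.642, 0.675, 0.373 and 0.799 CPM in the control mice, 0.385, 0.310, 0.151 and 0.936 CPM at 0.03 and 0.586, 0.674, 0.241 and 0.526 CPM at 0.3 mg/kg-day. Mogat1 had 1.73, 2.31, 1.77 and 2.24 CPM at 3.0 and 5.97, 5.65, 3.69 and 5.78 CPM at 6.0 mg/kg-day. The 3.0 group lay wholly above the 3 lower groups, and the 6.0 group lay wholly above the 3.0 group. Mogat1 rose 3.16-fold at 3.0 (log2 1.66 ± 0.36, adjusted p = 0.00699) and 8.27-fold at 6.0 mg/kg-day (log2 3.05 ± 0.35, adjusted p = 2.37e-06). Its rounded counts were low, from 3 to 112 per library, and 12.8% of its annotated exon bases are shared with BC035947 on the opposite strand.

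Dgat2, the acyltransferase that adds the last acyl chain of triglyceride, had 520.5, 436, 360.2 and 475 CPM in the control mice, 499.7, 459, 388 and 442 CPM at 0.03 and 449.7, 453, 421 and 455 CPM at 0.3 mg/kg-day. Dgat2 had 413, 364, 245 and 286 CPM at 3.0 and 240.2, 190.4, 227 and 336 CPM at 6.0 mg/kg-day. The 6.0 group lay wholly below the control group, and the 3.0 group overlapped it. Dgat2 fell by 0.85 ± 0.17 on the log2 scale at 6.0 mg/kg-day (adjusted p = 0.00116).

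Lpin1, a phosphatidate phosphatase that makes diacylglycerol and also acts as a transcriptional coactivator, had 33.0, 33.0, 31.5 and 28.6 CPM in the control mice, 27.5, 32.0, 29.3 and 28.4 CPM at 0.03 and 29.7, 32.4, 21.2 and 29.9 CPM at 0.3 mg/kg-day. Lpin1 had 22.5, 20.6, 22.7 and 19.3 CPM at 3.0 and 15.7, 12.4, 26.1 and 17.1 CPM at 6.0 mg/kg-day. Both upper groups lay wholly below the control group. Lpin1 fell by 0.82 ± 0.17 on the log2 scale at 6.0 mg/kg-day (adjusted p = 0.0015), and its change at 3.0 mg/kg-day was -0.57 (adjusted p = 0.0646).

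The other 5 genes of triglyceride synthesis did not pass at 6.0 mg/kg-day. Gpam, which adds the first acyl chain to glycerol 3-phosphate, changed by 0.70 (adjusted p = 0.121), or by 0.31 without the 5 libraries that stood apart, and spanned 109 to 361 CPM at 6.0 mg/kg-day and 97.2 to 147 CPM in the control mice. Lpin2 changed by 0.54 (adjusted p = 0.0973). The acyltransferases Agpat2 and Agpat3 changed by -0.40 and 0.06, and Dgat1, the other enzyme of the last step, by 0.23 (adjusted p = 0.384). Of the enzymes of the last step Dgat2 was called and Dgat1 was not, and the difference between their changes was not tested.

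Of the 6 genes of droplet coat and assembly, Fitm1 and Cidec rose at 6.0 mg/kg-day. Fitm1, which is known mainly from muscle and helps triglyceride to collect in droplets, had 0.790, 0.619, 0.149 and 0.742 CPM in the control mice, 0.578, 0.931, 0.301 and 2.09 CPM at 0.03 and 0.852, 0.866, 0.818 and 1.000 CPM at 0.3 mg/kg-day. Fitm1 had 2.64, 3.55, 1.51 and 3.69 CPM at 3.0 and 9.20, 12.3, 4.09 and 8.10 CPM at 6.0 mg/kg-day. The 6.0 group lay wholly above all other groups, and its lowest value was in library 23. Fitm1 rose 4.72-fold at 3.0 (log2 2.24 ± 0.48, adjusted p = 0.00675) and 14.0-fold at 6.0 mg/kg-day (log2 3.81 ± 0.47, adjusted p = 6.48e-06). The fold rests on 2 to 16 rounded counts per library in the control mice. Of 7 skeletal muscle markers listed 1 was measured, Mylpf, with at most 16 counts in a library. Mylpf was between 0.0963 and 0.790 CPM in all 20 libraries and did not pass (0.30, adjusted p = 0.694). A part of muscle tissue in the Fitm1 change was not tested. Of the Fitm1 exon bases 11.2% are shared with the antisense gene Gm15932.

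Cidec, which fuses small droplets into larger ones, had 0.691, 1.07, 0.671 and 1.37 CPM in the control mice, 0.835, 0.672, 0.402 and 0.826 CPM at 0.03 and 0.533, 0.866, 0.722 and 0.684 CPM at 0.3 mg/kg-day. Cidec had 1.40, 1.18, 1.30 and 1.18 CPM at 3.0 and 2.98, 4.64, 2.94 and 5.73 CPM at 6.0 mg/kg-day. Every mouse at 6.0 mg/kg-day was above every mouse of the other groups, and the 3.0 group overlapped the control group. Cidec rose 4.25-fold (log2 2.09 ± 0.28, adjusted p = 1.42e-05).

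Plin2, the main droplet coat protein of hepatocytes, had 302, 395, 175 and 281 CPM in the control mice, 244, 376, 181 and 347 CPM at 0.03 and 242, 256, 206 and 251 CPM at 0.3 mg/kg-day. Plin2 had 275, 372, 252 and 411 CPM at 3.0 and 502, 506, 272 and 513 CPM at 6.0 mg/kg-day. In each group the lowest Plin2 value was that of the library that stood apart, and the other 3 mice at 6.0 mg/kg-day were above every control mouse. Plin2 did not pass (0.64 ± 0.25, adjusted p = 0.0776). With a term for the libraries that stood apart it did (0.64, adjusted p = 0.00212), as it did without those libraries (0.66, adjusted p = 0.00531). Because those libraries were picked from these same values, both p-values can be too small. The droplet proteins Plin4 and Plin5 changed by 0.33 and 0.22 and Fitm2, the paralog of Fitm1, by 0.33, none of them called.

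Among the 5 genes of lipolysis, Pnpla3 and G0s2 rose at 6.0 mg/kg-day and the 3 main lipases did not pass. Pnpla3, a droplet protein that binds the lipase cofactor CGI-58 and whose human counterpart is tied to fatty liver, had 1.33, 2.53, 1.79 and 1.08 CPM in the control mice, 1.67, 1.14, 2.71 and 1.05 CPM at 0.03 and 2.72, 1.49, 1.40 and 1.47 CPM at 0.3 mg/kg-day. Pnpla3 had 3.02, 5.86, 10.6 and 6.49 CPM at 3.0 and 5.53, 7.91, 12.2 and 6.00 CPM at 6.0 mg/kg-day. Both upper groups lay wholly above the 3 lower groups and overlapped each other. Pnpla3 rose 3.86-fold at 3.0 (log2 1.95 ± 0.39, adjusted p = 0.00349) and 4.70-fold at 6.0 mg/kg-day (log2 2.23 ± 0.39, adjusted p = 0.000255).

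G0s2, which inhibits the lipase ATGL, had 14.5, 12.3, 8.57 and 9.36 CPM in the control mice, 10.2, 11.4, 8.54 and 12.7 CPM at 0.03 and 10.7, 10.2, 13.7 and 11.8 CPM at 0.3 mg/kg-day. G0s2 had 22.1, 22.5, 11.8 and 16.6 CPM at 3.0 and 26.9, 21.6, 12.2 and 44.5 CPM at 6.0 mg/kg-day. At both upper doses the library that stood apart lay within the control range and the other 3 mice lay above it. G0s2 rose by 1.23 ± 0.29 at 6.0 mg/kg-day (adjusted p = 0.00392).

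Pnpla2, the gene of ATGL, and Lipe, the hormone-sensitive lipase, changed by 0.04 (adjusted p = 0.904) and -0.44 (adjusted p = 0.0972) at 6.0 mg/kg-day. Of the Lipe exon bases 15.6% are shared with the antisense gene 4732471J01Rik. Mgll, which splits monoacylglycerol, had 183, 164, 155 and 197 CPM in the control mice, 162, 196, 165 and 194 CPM at 0.03 and 158, 156, 158 and 159 CPM at 0.3 mg/kg-day. Mgll had 167, 193, 191 and 218 CPM at 3.0 and 164, 115, 193 and 229 CPM at 6.0 mg/kg-day. The groups overlapped at every dose, and the change at 6.0 mg/kg-day was 0.01 ± 0.15 (adjusted p = 0.983).

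**Figure D2:**
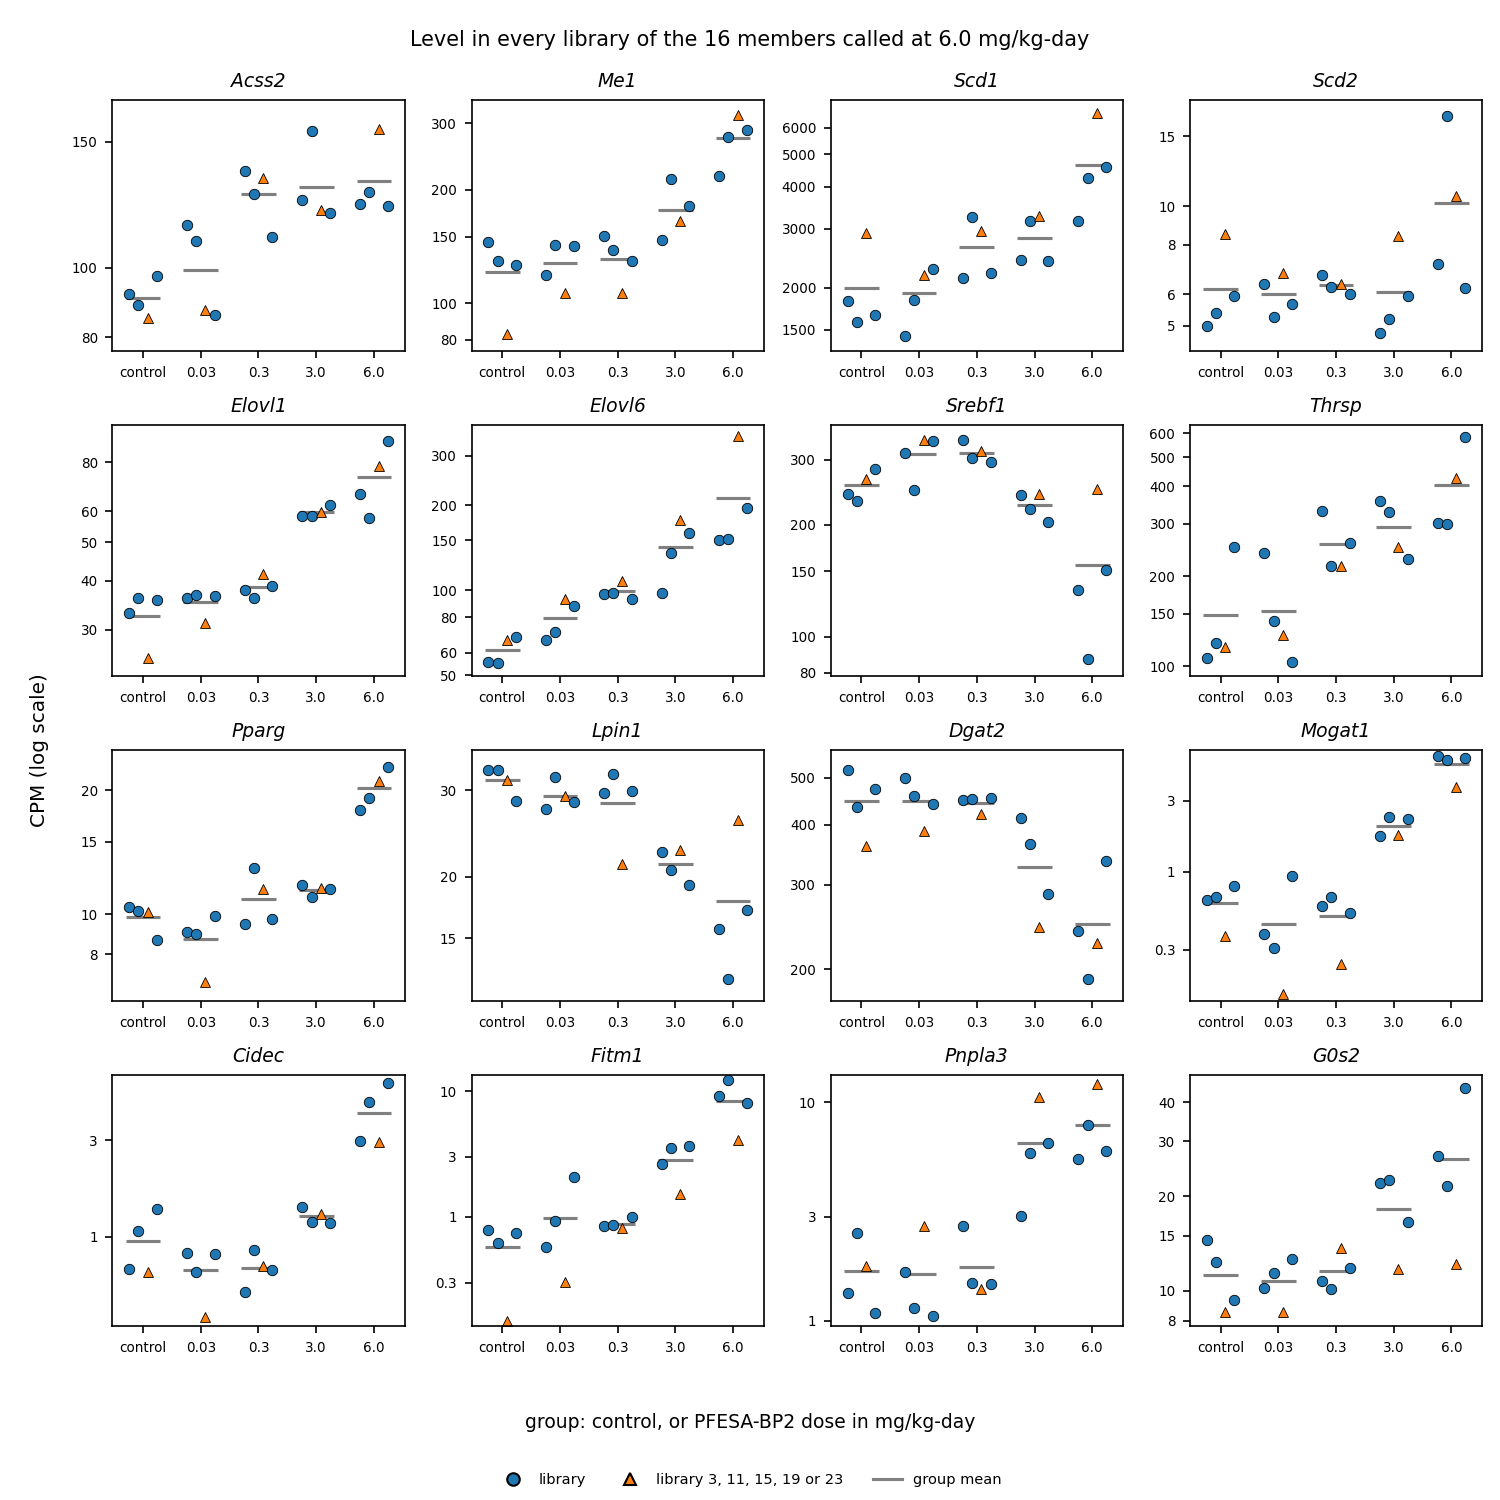
CPM (log scale) in each of the 20 libraries for the 16 genes called at 6.0 mg/kg-day, with the groups from control to 6.0 mg/kg-day along the x axis, a grey line at each group mean and triangles for the library that stood apart in each group. The 6.0 group lies wholly above the 3.0 group for Me1, Mogat1, Cidec, Fitm1 and Pparg. Several genes, among them Acss2, Elovl1, Elovl6 and Pnpla3, have most of their change by 3.0 mg/kg-day.

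Set side by side, the 22 genes of synthesis had a median change of 0.43 at 6.0 mg/kg-day with 7 higher and 2 lower (31.8% and 9.09%). The 11 genes of storage and lipolysis had a median of 0.33 with 4 higher and 0 lower (36.4% and 0%). Among all genes tested 11.2% were higher and 11.2% lower, so the lower share of synthesis was near that of all genes. Without the 5 libraries that stood apart the medians of synthesis and of storage and lipolysis were 0.20 and 0.28, so that their order turned. Then 8 of the 22 were higher and 4 lower, and 5 of the 11 were higher and 1 lower. In that fit 17.8% of all genes were higher and 16.7% lower. At 3.0 mg/kg-day the counts were 4 higher of 22 and 2 higher of 11 (18.2% each), with medians of 0.15 and 0.14. Among all genes tested 3.18% were higher at that dose. At 0.3 mg/kg-day the medians were 0.14 for synthesis and -0.14 for storage and lipolysis, or 0.09 and -0.16 without those libraries. The medians of the roles at 6.0 mg/kg-day were 0.50 (fatty acid synthesis), 0.45 (desaturation and elongation), 0.65 (regulators), 0.15 (triglyceride synthesis), 0.48 (droplet genes) and 0.04 (lipolysis). For the 6 genes of fatty acid synthesis the median was 0.34, 0.60, 0.53 and 0.50 from the lowest to the highest dose. Without those libraries it was 0.33, 0.53, 0.47 and 0.21, lowest at the highest dose, and the median of lipolysis at 6.0 mg/kg-day was -0.01. For the 6 droplet genes the median with all libraries was -0.02, -0.26, 0.15 and 0.48 from the lowest to the highest dose. Without those libraries the median of the droplet genes was 0.02, -0.38, 0.11 and 0.47. No difference between roles was tested.

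Between the 2 highest doses, 4 members were higher at 6.0 than at 3.0 mg/kg-day and 0 were lower (10.8% of members, where 1.03% of all genes tested were higher and 1.06% lower). They were Cidec (1.68 ± 0.27, adjusted p = 0.00286), Pparg (0.82 ± 0.13, adjusted p = 0.00286), Mogat1 (1.39 ± 0.31, adjusted p = 0.0206) and Fitm1 (1.57 ± 0.40, adjusted p = 0.0456). Pnpla3 and Elovl1, both called at 3.0 mg/kg-day, had changes of 0.28 (adjusted p = 0.758) and 0.30 (adjusted p = 0.277) between these doses. With a term for the libraries that stood apart 9 members were higher and 1, Srebf1, was lower (-0.58, adjusted p = 0.0367), where 4.61% of all genes were higher and 4.61% lower. Without those libraries 6 were higher and 2 lower, namely Srebf1 (-0.83, adjusted p = 0.00571) and Lpin1 (-0.46, adjusted p = 0.0272), where 4.55% of all genes were higher and 5.2% lower. When only the 3.0 and 6.0 groups were fitted with edgeR, 0 members and 0% of all genes passed at an adjusted p under 0.05, and 8 members had an unadjusted p under 0.05. Leaving out library 17, 18, 22 or 24 left 2 members, a count without a share over all genes beside it and not read as a result.

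Whole groups separated from the control group more often at the higher doses. Lying wholly above the control group were 0, 8, 9 and 11 members from the lowest to the highest dose, and wholly below it 0, 0, 1 and 2 members. Among all genes tested the shares wholly above were 1.88%, 3.71%, 5.55% and 9.68%, and those wholly below were 1.44%, 2.97%, 4.95% and 8.86%. Of the members, 24.3% lay wholly above at 3.0 and 29.7% at 6.0 mg/kg-day.

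Some members were at an extreme in the library that stood apart in every group. Fasn, Gpam and Lpin2 were highest in that library in all 5 groups, which is 8.11% of the members, where 12% of all genes tested were highest in it. Lowest in it in all 5 groups were Agpat2, Dgat1, Plin2 and Fitm1, which is 10.8% of the members and 13.6% of all genes. Neither share was tested. With a term for these libraries in the fit, 10 members were higher and 2 lower at 3.0 mg/kg-day (27% and 5.41%), where 5.59% of all genes were higher and 3.58% lower. In that fit 18 were higher and 5 lower at 6.0 mg/kg-day (48.6% and 13.5%), where 18.4% of all genes were higher and 18.7% lower. Without these libraries 10 were higher and 1 lower at 3.0 mg/kg-day, where 3.98% of all genes were higher and 1.66% lower. At 6.0 mg/kg-day 15 were then higher and 6 lower (40.5% and 16.2%), where 17.8% of all genes were higher and 16.7% lower. All 16 genes called at 6.0 mg/kg-day kept their call in both fits. Acly, Fasn, Gpam, Lpin2 and Plin2 joined the higher genes with the term, and Agpat2 and Lipe the lower ones. Of these 7, Lpin2, Plin2 and Lipe were also called without these libraries, while Acly, Fasn, Gpam and Agpat2 were not (adjusted p = 0.561, 0.192, 0.102 and 0.0655). Leaving out library 23 alone left 5 members lower at 6.0 mg/kg-day, a count without a share over all genes beside it and not read as a result.

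**Figure D3:**
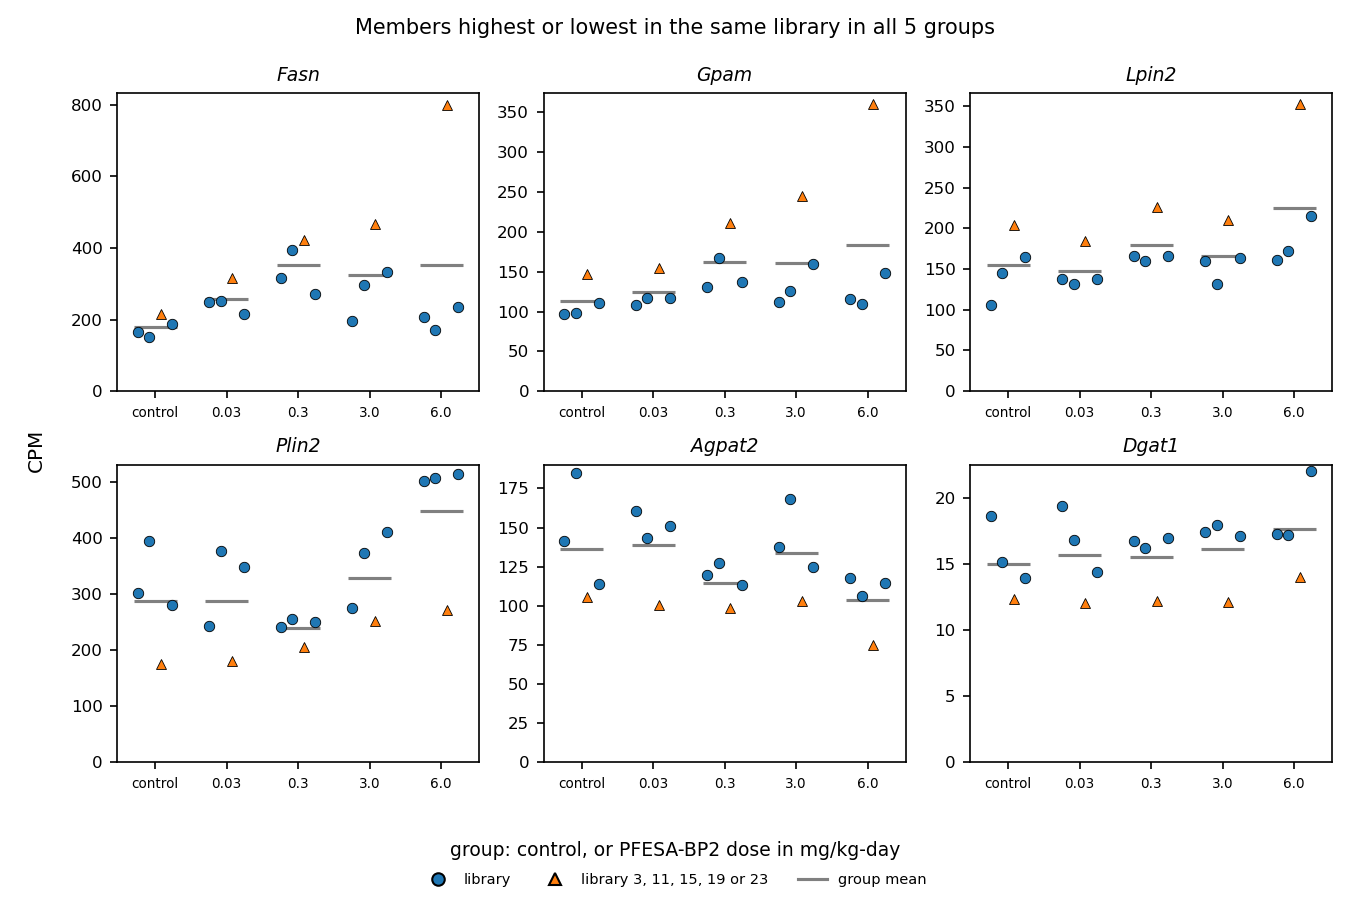
CPM in each library of the 6 members shown, by group from control to 6.0 mg/kg-day, with a grey line at the group mean and triangles for libraries 3, 11, 15, 19 and 23. The triangle is the highest point of each group for Fasn, Gpam and Lpin2 and the lowest for Plin2, Agpat2 and Dgat1, and for Fasn at 6.0 mg/kg-day it is at 800 CPM.

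Levels of different genes can be compared roughly per length of annotated exon (GENCODE annotation of GRCm38). The length joins the exons of all annotated transcripts of a gene. The annotation behind the counts is not known, so the order is approximate. On this scale Scd1 was the most abundant member in both groups compared here, with 950.2 ± 295 CPM per kb at 6.0 mg/kg-day and 408 ± 126 CPM per kb in the control mice (SD, n = 4 each). Elovl5 was next, with 232 ± 38.9 CPM per kb at 6.0 mg/kg-day and 206 ± 16.1 CPM per kb in the control mice. Dgat2 ranked 7 at 6.0 mg/kg-day and 3 in the control mice, with 80.5 ± 20.1 CPM per kb at 6.0 mg/kg-day and 145 ± 22.0 CPM per kb in the control mice. Dgat1 had 5.78 ± 1.08 CPM per kb at 6.0 mg/kg-day and 4.92 ± 0.876 CPM per kb in the control mice, below Dgat2 in both. Thrsp ranked 3 at 6.0 mg/kg-day, with 184 ± 61.5 CPM per kb, against 67.6 ± 31.3 CPM per kb in the control mice. Fitm1, Mogat1 and Cidec averaged 8.67, 3.38 and 2.19 CPM per kb at 6.0 mg/kg-day, against 0.592, 0.399 and 0.512 CPM per kb in the control mice. Some neighbours in the order overlapped, such as Dgat2 and Fads2, which ranked 7 and 8 at 6.0 mg/kg-day (80.5 ± 20.1 and 79.9 ± 23.2 CPM per kb).

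**Figure D4:**
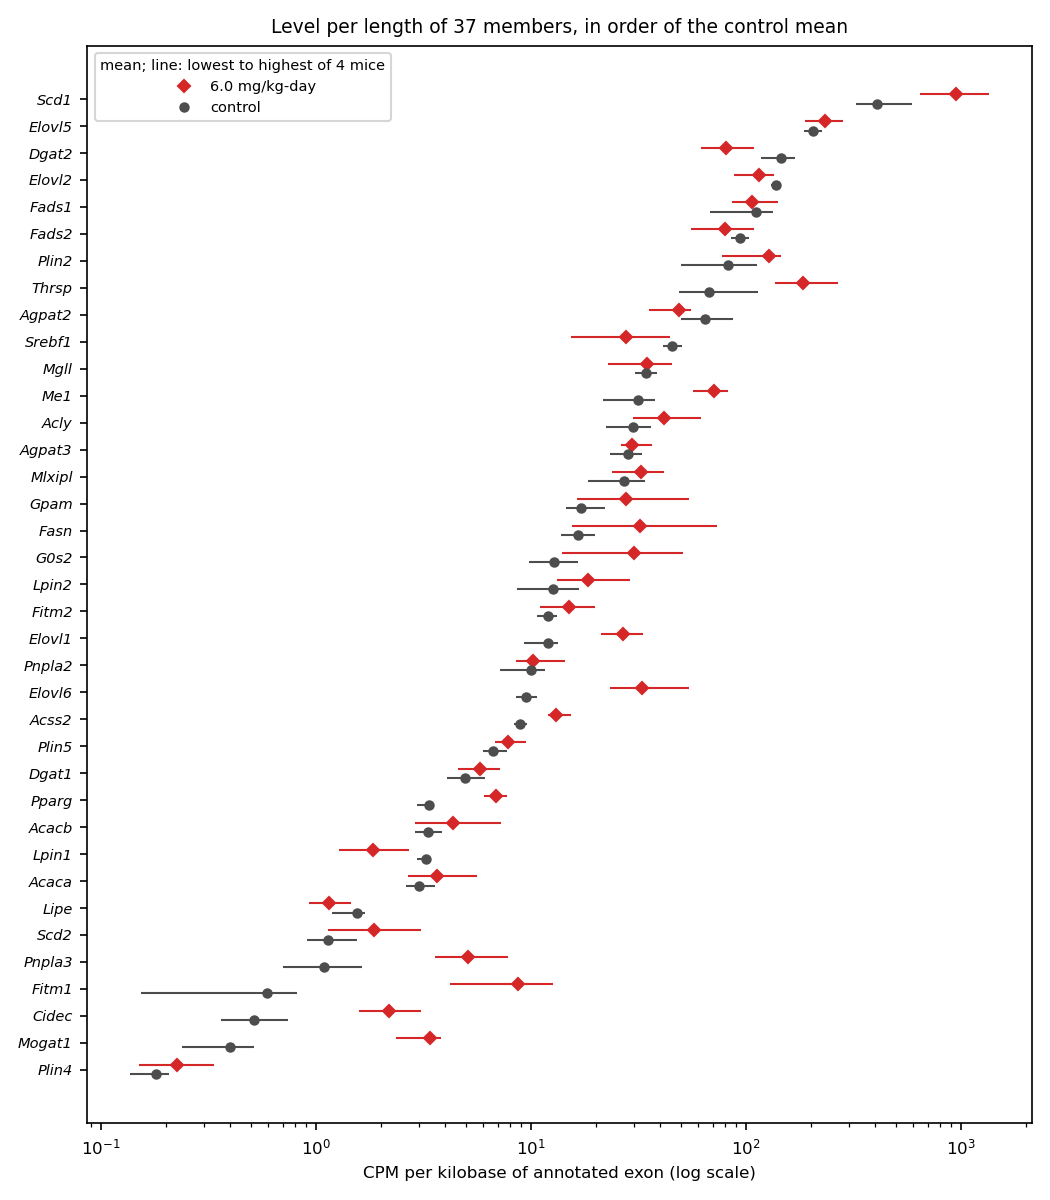
Level of each member per kilobase of annotated exon (log scale) in the 6.0 mg/kg-day group (red diamonds) and the control group (grey circles), as means with a line between the lowest and highest of 4 mice, in order of the control mean. Scd1 leads in both groups, and Fitm1, Mogat1 and Cidec are among the lowest members of the control group.

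Other genes of the same pathways were listed apart from the members, and 72 of the 75 listed were tested. At 6.0 mg/kg-day 19 were higher and 6 lower (26.4% and 8.33%, where 11.2% of all genes were higher and 11.2% lower). At 3.0 mg/kg-day 9 were higher and 2 lower (12.5% and 2.78%, where 3.18% of all genes were higher and 1.43% lower). At the 2 lower doses 0 passed. Of 18 further genes around fatty acid synthesis 8 rose (44.4%) and 0 fell. They included Pgd, an enzyme of the pentose phosphate pathway that makes NADPH (1.18, adjusted p = 9.28e-06), and the elongase Elovl3 (2.34, adjusted p = 0.000157). They also included Acsl3, which activates fatty acids (0.70, adjusted p = 0.00502), and Pdk4, a kinase that turns off pyruvate dehydrogenase and makes no fatty acid itself (1.19, adjusted p = 0.00041).

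Among 17 further regulators 4 rose (23.5%) and 3 fell (17.6%). Insig2 and Insig1, which hold the SREBP escort protein in the endoplasmic reticulum, rose by 1.86 (adjusted p = 1.42e-07) and 0.90 (adjusted p = 0.00285). Scap, that escort protein, fell by 0.83 on the log2 scale (adjusted p = 8.91e-05). These 3 genes were also called, in the same direction, at 3.0 mg/kg-day.

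Of 14 further genes of triglyceride synthesis 1 rose (7.14%) and 2 fell (14.3%), shares near the 11.2% in each direction over all genes tested. Gpat4, a glycerol-3-phosphate acyltransferase, rose by 0.55 (adjusted p = 0.000644). Plpp3, a phospholipid phosphatase, fell by 0.77 (adjusted p = 0.00032) and Gk, glycerol kinase, fell by 0.49 (adjusted p = 0.0169) on the log2 scale. Of 23 further droplet and lipolysis genes 6 rose (26.1%) and 1 fell (4.35%). Ces1d, a lipase of the endoplasmic reticulum, rose by 1.32 (adjusted p = 2.89e-07), while Ces3b, another carboxylesterase, fell by 2.09 on the log2 scale (adjusted p = 4.03e-07). Abhd5, which encodes the ATGL activator CGI-58, rose by 0.99 (adjusted p = 0.000228), and Mttp, which loads triglyceride onto lipoproteins, rose by 0.64 (adjusted p = 0.000981).

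Markers of cell types moved along with these results, and their part in them was not tested. Of the 10 hepatocyte markers 7 fell and 0 rose at 6.0 mg/kg-day, and their summed level was 83750 to 115054 CPM at 6.0 mg/kg-day and 133059 to 177564 CPM in the control mice. Of 9 adipocyte markers 3 were measured, with sums of 5.13 to 11.1 CPM at 6.0 mg/kg-day and 3.35 to 4.89 CPM in the control mice. The defining marker Adipoq (adiponectin) was between 0 and 0.197 CPM, at most 4 counts, in every library. Fabp4 rose by 1.14 (adjusted p = 0.00443), and Adrb3 did not pass (0.02, adjusted p = 0.981). Of 11 stellate cell markers 4 fell, with sums of 224 to 408 CPM at 6.0 mg/kg-day and 373 to 424 CPM in the control mice. The 10 Kupffer cell and macrophage markers summed to 253 to 562 CPM at 6.0 mg/kg-day and 326 to 398 CPM in the control mice, and 1 of them, Csf1r, fell. The 562 CPM was that of library 22, and the next highest of all 20 libraries was at 408 CPM.

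Of 4 T and NK cell markers tested 2 rose (Cd3g and Lck), and the sum of all 8 was 3.69 to 122 CPM at 6.0 mg/kg-day, highest in library 22, and 4.51 to 7.03 CPM in the control mice. Of 5 neutrophil and monocyte markers tested 1 rose, S100a8 (3.97, adjusted p = 5.9e-06), with sums of 9.20 to 28.4 CPM at 6.0 mg/kg-day, also highest in library 22, and 5.06 to 6.86 CPM in the control mice. Of 10 markers of sinusoidal endothelium Lyve1 (1.78) and Pecam1 (0.54) rose while Stab1, Stab2 and Dnase1l3 fell, with sums of 252 to 315 CPM at 6.0 mg/kg-day and 306 to 344 CPM in the control mice. Of 6 erythroid markers Alas2 rose and Hbb-bt and Slc4a1 fell, with sums of 263 to 579 CPM at 6.0 mg/kg-day and 529 to 966 CPM in the control mice. Of 5 B cell markers tested 0 passed, and Cela1, the only marker of pancreatic acinus measured, fell. Without library 22, 13 members were higher and 3 lower at 6.0 mg/kg-day, and the Scd2 call was lost. No share over all genes is given for that fit, so these counts are not read as a result about the members.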

How the data were processed

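The authors deposited a table of expected counts per gene (estimated counts that need not be whole), with 1 column per library, a unit read from the values, of which 58.0% were whole. Partek and the build GRCm38.p5 are named in the submitters' processing notes. The sources used here do not give the aligner, the way of counting, the gene annotation or the use of strand. The labels list 80 lane samples, 4 lanes for each of 20 libraries from individual mice.

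Expected counts were rounded, low rows were removed with filterByExpr (15197 kept, 6906 left out) and libraries were scaled by TMM. All 20 libraries entered 1 edgeR quasi-likelihood fit (edgeR 4.0.16, R 4.3.3) in which each group had its mean (15 residual degrees of freedom). The biological coefficient of variation was 0.219. P-values were adjusted by Benjamini-Hochberg over all genes, with 0.05 as the threshold. The SE is the change divided by the square root of F. The fits were also run on simulated counts drawn independently for each gene and library, without the variation that libraries share across genes. That run therefore cannot show how often the tests err in these data. Alternatives were RLE scaling, no filter, DESeq2 1.42.0, limma-voom (limma 3.58.1), a fit of only the groups compared, a term for or removal of the 5 libraries apart, and leaving out each library.

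The 37 genes and the lists were chosen with earlier results of these data known. Values per library are given for members that passed at 6.0 mg/kg-day or in the joint test and for the most abundant member of each role, and of each further list the 4 genes called at 6.0 mg/kg-day with the lowest adjusted p are named. The values of 1 gene that this rule names are not reported here.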

Additional observations from a re-analysis of the deposited data

Results flagged for a closer look

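For the 19 genes with values per library, each group of 4 was searched for a mouse far from the other 3, and 10 of 95 groups held one. Chance flags about 1 in 20 groups if values are normally distributed and groups are independent. The groups of different genes here share the same mice, so 10 of 95 is not read as an excess. At 6.0 mg/kg-day library 23 was far from the rest in 4 genes. It held 800 CPM of Fasn where the next mouse held 236 CPM, and 156 CPM of Acss2 where the next held 128 CPM. It was lowest for Plin2, at 272 CPM where the next held 502 CPM, and for Mogat1, at 3.69 CPM where the next held 5.65 CPM. At 3.0 mg/kg-day library 18 was highest for Acss2, at 155 CPM where the next held 124 CPM. At 0.3 mg/kg-day library 15 was lowest for Dgat2, at 421 CPM where the next held 450 CPM, and library 13 was highest for Pnpla3, at 2.72 CPM where the next held 1.49 CPM. At 0.03 mg/kg-day library 11 was lowest for Elovl1, at 31.3 CPM where the next held 36.2 CPM. In the control group library 4 was highest for Thrsp, at 250 CPM where the next held 120 CPM, and lowest for Pparg, at 8.68 CPM where the next held 10.1 CPM.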

How the results depend on the processing

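Over the 26 changes called for single genes, 362 of 390 alternative values kept direction and call, 28 kept direction only and 0 reversed, and 19 changes were called under every alternative run. The changes that lost a call somewhere were Acss2 at 3.0, Scd2 and Srebf1 at 6.0, and Pparg, Cidec, Mogat1 and Fitm1 between 6.0 and 3.0 mg/kg-day (adjusted p up to 0.279 for Scd2 and 0.194 for Fitm1). Members higher at 0.3 mg/kg-day numbered 0, and 2 with DESeq2, 2 with only the groups compared, 4 with a term for libraries 3, 11, 15, 19 and 23 and 3 without those. At 3.0 mg/kg-day 6 were higher, and 10 with that term and 10 without those libraries. There 0 were lower, and 1 with DESeq2, 1 with only the groups compared, 2 with the term and 1 without the libraries. At 6.0 mg/kg-day 3 were lower, and 5 with the term and 6 without the libraries. Between 6.0 and 3.0 mg/kg-day 4 passed, and 10 with the term (9 higher), 8 without the libraries (6 higher) and 0 with only the groups compared. In the joint test 15 passed, and 24 with the term. That fit called more of all genes too, 5639 at 6.0 mg/kg-day where the main fit called 3405. No share over all genes is given for the joint test with the term. Nor is one given for the fits of only the groups compared at 0.3 and 3.0 mg/kg-day. Those counts are not read as a result about the members. The cause of the differences between fits was not tested. Leaving out 1 library gave 5 to 7 higher at 3.0, 12 to 15 higher and 2 to 5 lower at 6.0, 2 to 6 between the upper doses and 15 to 21 in the joint test. The other counts stayed at 0. For the fits that left out 1 library no share over all genes is given either, and their counts are likewise not read as a result about the members. No paired analysis was run because the labels name no pair or block and share no library number between groups. The term for the 5 libraries comes from their values, not from a pairing. A block that the labels do not name was not tested. Depth limits Mogat1 (3 to 112 rounded counts), Cidec (8 to 104), Fitm1 (2 to 244) and Plin4 (8 to 35).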
